A study of Mus musculus with 6 samples.

Results

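Oxidative phosphorylation passes electrons from NADH and succinate along 4 membrane complexes to oxygen, and the ATP synthase, complex V, uses the resulting proton gradient to make ATP. Complex I (NADH dehydrogenase) and complex II (succinate dehydrogenase) feed electrons in, complex III (the cytochrome bc1 complex) passes them to cytochrome c, and complex IV (cytochrome c oxidase) hands them to oxygen. The intestinal epithelium renews itself continuously and depends on this pathway in both its dividing crypt cells and its absorptive cells. The nuclear genes of the 5 complexes are described here in whole terminal ileum. They were taken as all rows of the deposited table whose symbol begins with Nduf, Uqcr, Cox4 to Cox8 or Atp5, or is Sdha, Sdhb, Sdhc or Sdhd. This gave 92 of 23402 genes. By complex, 43 belonged to complex I, 4 to complex II, 8 to complex III, 20 to complex IV and 16 to complex V, and Atp5sl, which carries an ATP synthase name but encodes an assembly factor, was kept apart.

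RNA was sequenced from the terminal ileum of 6 mice aged 6 weeks, 1 library per mouse, sampled on day 6 of drinking dextran sodium sulfate (DSS), a polymer that injures the gut epithelium. All 6 mice were labelled Il17rafl/fl, with floxed alleles of the gene for a subunit of the interleukin-17 receptor. The 3 mice of the Cre-positive group (titled KO) also carried Atoh1-cre, a recombinase driven by the gene of the transcription factor that specifies the secretory cells of the gut. The 3 mice of the Cre-negative group (titled WT) were littermates without it, and no mice without DSS were analysed here. Recombination was directed at the Atoh1 lineage only, while the RNA came from the whole tissue.

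The values are FPKM, which count fragments relative to transcript length and library depth. Between 16317 and 16547 genes were above 0 in each library. The smallest values move in steps of 1 fragment. These steps placed the depth of the other libraries at 0.851 to 0.978 of that of the library labelled Cre-negative 1. They give the sequenced depth only if no other scaling between libraries was applied, which is not stated. Il17ra was not lower in the Cre-positive libraries, at 7.93, 8.36 and 6.07 FPKM against 6.04, 5.91 and 6.53 (exact permutation test, two-sided, p = 0.2, smallest possible 0.1), so the groups are named by their labels. Genes that define the distal ileum were low: Fabp6, the ileal bile acid binding protein, lay between 0.316 and 9.79 FPKM and Slc10a2, the ileal bile acid transporter, between 0.0669 and 1.94, while the enterocyte phosphatase Alpi lay between 101 and 193. The libraries were of both sexes: Xist was at 148, 166 and 177 FPKM in Cre-negative 3, Cre-positive 2 and Cre-positive 3 and at 0.110 to 0.194 in the other 3.

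Of the 92 genes, 86 had a mean of at least 1 FPKM over the 6 libraries and were tested. The 6 others were tissue-restricted isoforms of complex IV subunits: Cox4i2, Cox6a2, Cox8b and Ndufa4l2 had means of 0.369 to 0.971 FPKM, and Cox7b2 and Cox8c were listed at 0 in every library. The 13 subunits encoded by mitochondrial DNA were not analysed here, so every complex except complex II is seen without part of its catalytic core or membrane domain.

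Levels differed widely between the subunits of one complex and between their roles. In complex I the 7 assembly factors (Ndufaf genes), which help build the complex but do not stay in it, had means of 3.00 to 10.8 FPKM. The 7 nuclear catalytic core subunits, which hold the flavin and iron-sulfur clusters, had a median of 85.1, with the lowest mean, 58.5, in Ndufs1. The 29 supernumerary subunits, which surround the core, ran from 14.1 (Ndufa11) to 325 (Ndufa3), with a median of 92.5. FPKM is scaled to transcript length, which allows a rough comparison of levels between genes. The scaling does not correct for fragments shared with near-identical genes, which 28 of all members have. Per library, Ndufa3 was at 394, 336 and 267 FPKM in the Cre-negative libraries 1, 2 and 3 and at 326, 318 and 310 in the Cre-positive ones. The next highest were Ndufb9 at a mean of 205 and Ndufa6 at 152.

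Complex II was the most even. Its flavoprotein Sdha, its iron-sulfur protein Sdhb and its membrane anchors Sdhc and Sdhd had means of 172, 188, 158 and 200 FPKM, a ratio of 1.27 between the highest and the lowest. In complex III the Rieske iron-sulfur protein Uqcrfs1 had a mean of 151 FPKM and the 2 core proteins Uqcrc2 and Uqcrc1 had 189 and 230. The 5 small supernumerary subunits lay higher, from 251 (Uqcr11) to 400 (Uqcrh) and 410 (Uqcrq). The 2 role groups did not overlap in mean level.

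In complex IV the 11 ubiquitous nuclear subunits, among them Ndufa4, which was first assigned to complex I, had means of 209 to 649 FPKM. The highest were Cox6b1, which bridges the dimer, at 649, Cox4i1, a regulatory subunit, at 599 and Cox8a at 544. Cox7a2l, which joins complexes III and IV into supercomplexes, had a mean of 126. In complex V the 5 genes of the F1 head and central stalk, where ATP is formed, ran from 265 (Atp5c1) to 560 for the alpha subunit Atp5a1 and 931 for the beta subunit Atp5b. Atp5b was the highest of all members, at 1034, 961 and 819 FPKM in the Cre-negative libraries and 872, 897 and 1004 in the Cre-positive libraries. The coupling factor Atp5s, at 4.39, was the lowest of that complex.

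The c-ring, the rotor of the ATP synthase, is made of identical copies of one mature protein encoded by 3 genes. Atp5g3 had a mean of 646 FPKM, Atp5g1 160 and Atp5g2 57.7, and this order held in all 6 libraries. Atp5g3 ranged from 507 to 775 FPKM, Atp5g1 from 127 to 187 and Atp5g2 from 47.1 to 73.7, so the 3 ranges did not overlap. Atp5g1 has 10 near-identical other genes and Atp5g2 has 1, and the effect of shared fragments on this order was not tested.

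**Figure D1:**
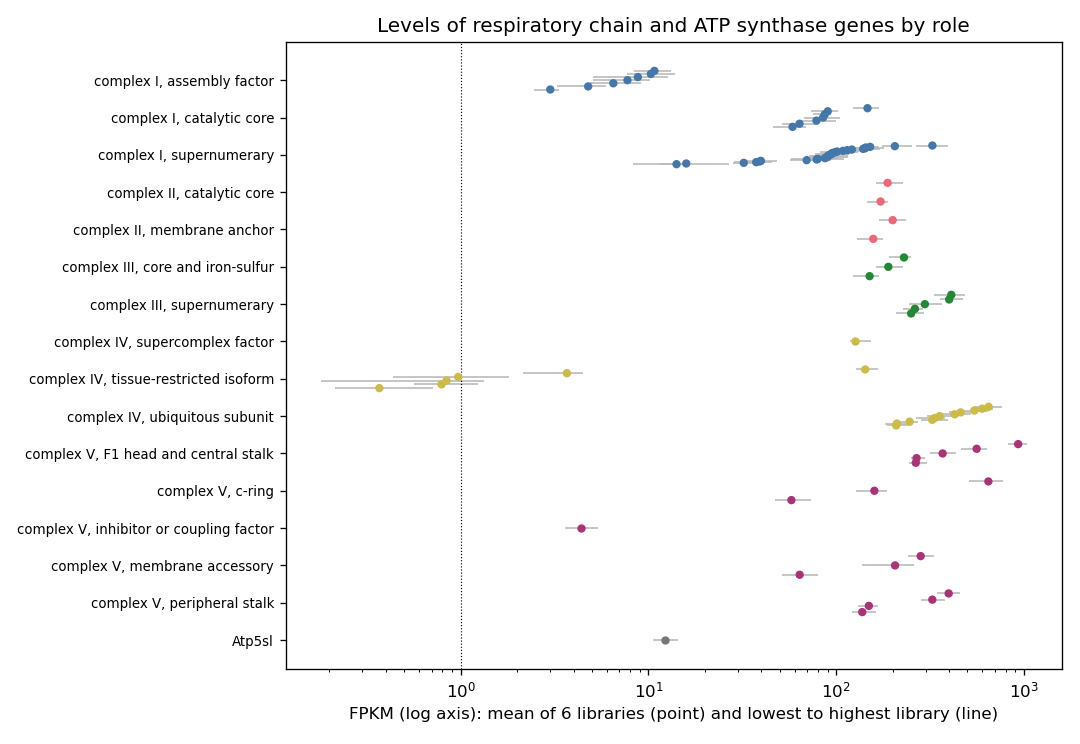
Mean FPKM of each member over 6 libraries (points, log axis) with the lowest and highest library (lines), by complex and role; the dotted line is the 1 FPKM filter, and Cox7b2 and Cox8c, at 0, are not drawn. Complex I assembly factors lie between 3.00 and 10.8 FPKM and the ubiquitous complex IV subunits between 209 and 649.

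Several complex IV subunits have a second isoform known from heart and skeletal muscle, lung or testis. Most of these were near 0 in the ileum. As a percent of its ubiquitous partner in the same library, Cox4i2 lay between 0.0265% and 0.235% of Cox4i1, Cox6a2 between 0.0429% and 0.156% of Cox6a1, and Cox8b between 0.0883% and 0.243% of Cox8a. Ndufa4l2, a hypoxia-induced relative of Ndufa4, lay between 0.116% and 0.534% of it. The testis isoform Cox6b2 lay between 0.282% and 0.793% of Cox6b1.

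Cox7a1 was the exception among these pairs. This isoform of Cox7a2 is known from heart, skeletal muscle and brown fat, and it was at 167, 137 and 127 FPKM in the Cre-negative libraries and 149, 138 and 138 in the Cre-positive libraries. Cox7a2 was at 254, 226 and 185 and at 182, 200 and 217. Cox7a1 thus stood at 65.8%, 60.4% and 68.4% of Cox7a2 in the Cre-negative libraries and at 82.0%, 68.8% and 63.8% in the Cre-positive libraries, and the groups overlapped. Markers of the tissues for which Cox7a1 is known were low: the skeletal actin Acta1 lay between 0.174 and 2.81 FPKM, the muscle creatine kinase Ckm between 3.13 and 7.55 and the brown fat protein Ucp1 between 0 and 0.0774. Of 12 striated muscle markers 2 had a mean of 1 FPKM or more, as had 1 of 5 brown adipocyte markers. Smooth muscle markers summed to 783 to 1037 FPKM in the Cre-negative and 700 to 855 FPKM in the Cre-positive libraries. Which cells of the tissue hold the Cox7a1 transcript was not tested.

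No member passed the test between Cre-positive and Cre-negative libraries, and in none did the groups separate. With limma's test on log2(FPKM + 1), 0 of 86 members had an adjusted p under 0.05, and the smallest adjusted p was 0.998. The same test called 0% of all 12695 tested genes. At an unadjusted p under 0.05, 0 members were higher and 0 were lower in the Cre-positive group, against 2.54% and 1.07% of all tested genes. In no member did the 3 Cre-positive values all lie above or all below the 3 Cre-negative values, against 5.77% of tested genes lying above and 2.6% below. In 54 members all 3 Cre-positive values lay inside the range of the Cre-negative values, which is 62.8% of members against 23.0% of all tested genes. This depended on the scaling: the share was 30.2% after median-of-ratios scaling (21.0% of all genes), 31.4% after quantile normalization (20.3%) and 17.4% after scaling to the same sum (13.3%).

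The estimates were small as well as uncertain. The members' log2 fold changes, Cre-positive against Cre-negative, ran from -0.27 (Ndufaf3) to 0.47 (Ndufs5), with a median of -0.056 and a median standard error of 0.15. For the 49 members with a mean over 100 FPKM, the 95% intervals from limma reached at most -0.76 and 0.44. The median was -0.060 in complex I, -0.039 in complex II, -0.046 in complex III, -0.076 in complex IV and -0.051 in complex V. In all, 65 members lay below 0 and 21 above, while the median of all tested genes was 0.029. This direction turned with the scaling: 77 members lay below 0 after median-of-ratios scaling, 41 after quantile normalization and 13 after each library was scaled to the same sum, which moved the median of all genes to 0.13. It also rested on single libraries: 21 lay below 0 without Cre-negative 1, 43 without Cre-positive 1 and 82 without Cre-negative 3.

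**Figure D2:**
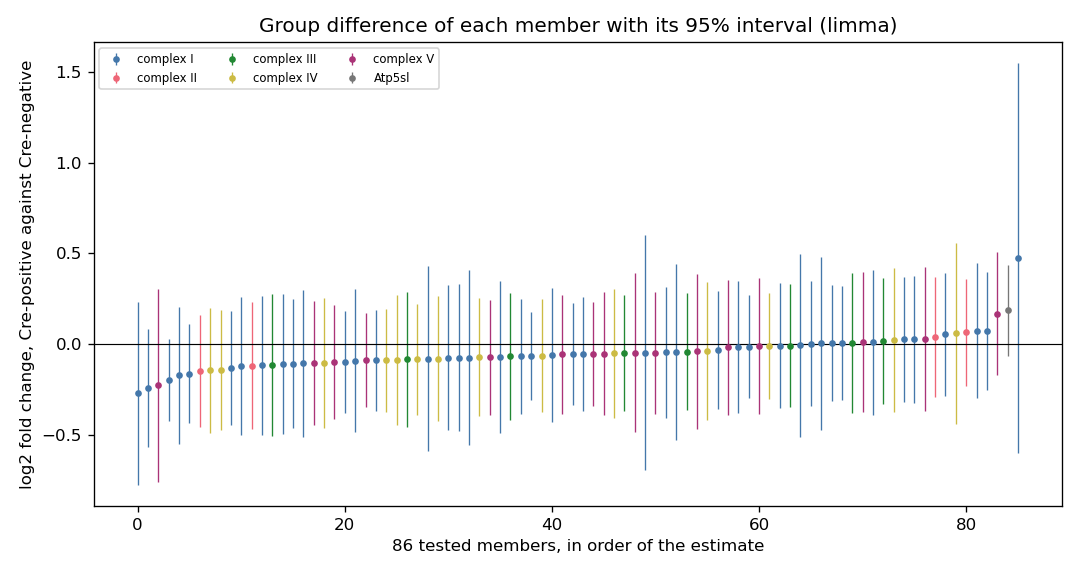
Log2 fold change of each of the 86 tested members (points, ordered by size) with its 95% interval from limma (bars), coloured by complex. The estimates run from -0.27 to 0.47 and each interval includes 0.

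By unadjusted p, the nearest to a change was Ndufa13, a supernumerary subunit of complex I also known for a role in cell death. It was at 42.7, 43.0 and 39.7 FPKM in the Cre-negative libraries and 33.7, 35.7 and 39.8 in the Cre-positive libraries. Cre-positive 1 and 2 lay below every Cre-negative value, and Cre-positive 3 lay just above the lowest of them. Its log2 fold change was -0.20 with a standard error of 0.097 (limma, unadjusted p = 0.075, adjusted p = 0.998). Ndufa1, an X-linked subunit of complex I, was at 116, 96.8 and 80.3 FPKM against 86.1, 79.8 and 78.5, a log2 fold change of -0.24 ± 0.14 (SE). Cre-positive 1 lay above the lowest Cre-negative value, so the groups overlapped.

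The other complexes held still smaller differences relative to their errors. In complex II, Sdhb was at 226, 194 and 174 FPKM against 163, 174 and 196, a log2 fold change of -0.15 ± 0.13 (SE), and Sdha was at 179, 182 and 146 against 161, 178 and 189, a change of 0.065 ± 0.13 (SE). In complex III, the subunit next to cytochrome c1, Uqcr10, was at 366, 320 and 245 FPKM against 254, 290 and 307, a log2 fold change of -0.11 ± 0.17 (SE). The groups overlapped in each.

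In complex IV the smallest unadjusted p values in the lower direction were those of Cox7a2 (-0.14 ± 0.14, SE) and Cox7c (-0.15 ± 0.15, SE). In complex V the subunit e gene Atp5k, which helps the synthase form dimers, was at 238, 259 and 167 FPKM against 137, 212 and 221. Its log2 fold change was -0.23 ± 0.23 (SE), and Cre-positive 1 was the lowest library. Atp5s was at 4.68, 3.59 and 3.92 against 3.81, 5.36 and 4.95, a change of 0.17 ± 0.15 (SE). Atp5sl was at 11.4, 12.3 and 10.6 against 11.8, 13.4 and 14.3, a change of 0.19 ± 0.11 (SE), and the groups overlapped.

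The members varied together between mice, across the 2 groups. Relative to each gene's mean over the 6 libraries, the 86 members averaged 0.23, 0.053 and -0.21 on the log2 scale in Cre-negative 1, 2 and 3 and -0.15, -0.018 and 0.092 in Cre-positive 1, 2 and 3. Cre-negative 1 was thus high, and Cre-negative 3 and Cre-positive 1 were low. All 5 complexes had this order of highest and lowest: Cre-negative 1 averaged 0.27 in complex I, 0.19 in II, 0.22 in III, 0.18 in IV and 0.22 in V, and Cre-negative 3 averaged -0.24, -0.21, -0.23, -0.15 and -0.21.

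At the level of single genes, 66 of 86 members (76.7%) were highest in Cre-negative 1, against 26.3% of all tested genes. This was not particular to the members: the share was 93.9% of 82 cytosolic ribosomal proteins and 61.8% of 76 mitochondrial ribosomal proteins. It was 29.2% of 24 genes of the TCA cycle and pyruvate dehydrogenase. Of the members, 59 (68.6%) were lowest in Cre-negative 3, against 38.6% of all tested genes, and 16 (18.6%) in Cre-positive 1, near the 15.6% of all tested genes. In the other lists, in the same order, 58.5%, 56.6% and 66.7% of the genes were lowest in Cre-negative 3. Of the 86, 85 were higher in Cre-negative 1 than in Cre-negative 3, and 77 were lower in Cre-positive 1 than in Cre-positive 3. The summed FPKM of all members was 18610, 16540 and 13680 in the Cre-negative libraries, or 3.10%, 3.01% and 2.57% of all FPKM, and 14480, 15500 and 16700 in the Cre-positive libraries, or 2.71%, 2.97% and 3.37%. As a share of the total, the highest library was therefore Cre-positive 3, not Cre-negative 1, and Cre-negative 3 remained the lowest.

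The place of Cre-negative 1 depended on the scaling in the same way. After each library was scaled to the same sum, the members averaged 0.076, 0.023 and -0.20 in the Cre-negative and -0.13, 0.022 and 0.21 in the Cre-positive libraries. Under median-of-ratios scaling they averaged 0.17 in Cre-negative 1, -0.11 in Cre-negative 3 and -0.12 in Cre-positive 1. Cre-negative 3 and Cre-positive 1 were the lowest 2 under each scaling tried.

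**Figure D3:**
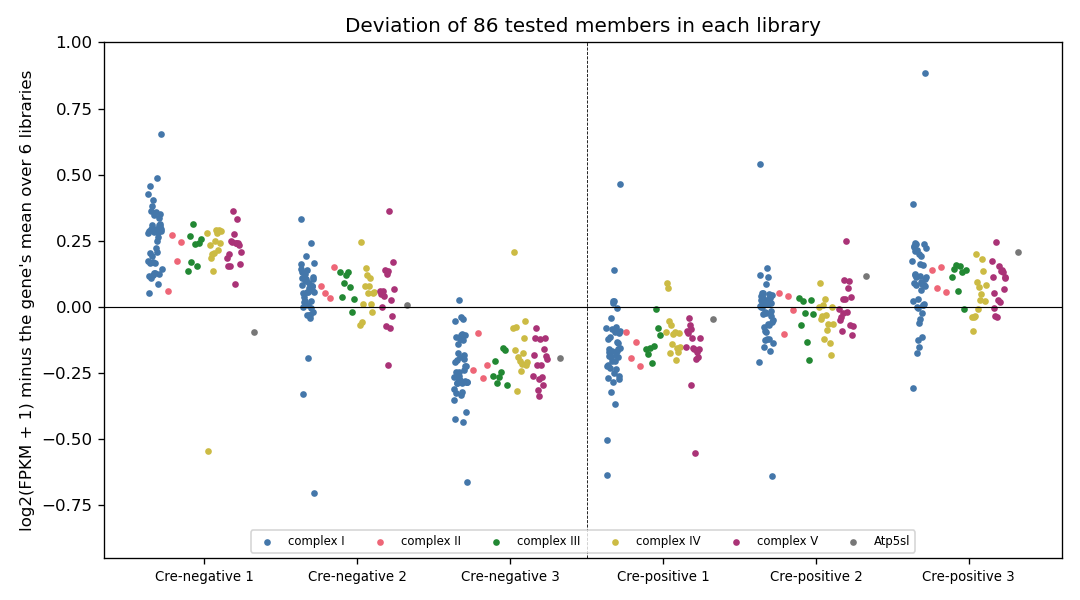
Deviation of log2(FPKM + 1) from the gene's mean over 6 libraries, for each of the 86 tested members (points) in each library, coloured by complex; the dashed line parts the groups. Members of each complex lie mostly above 0 in Cre-negative 1 and below 0 in Cre-negative 3 and Cre-positive 1, with means of 0.23, -0.21 and -0.15.

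Read by sex, the group difference took opposite directions. Among the 3 male libraries, the members were lower in Cre-positive 1 than in the mean of Cre-negative 1 and 2, with a median log2 difference of -0.29, and 83 of 86 lay below 0. Among the 3 female libraries, they were higher in the mean of Cre-positive 2 and 3 than in Cre-negative 3, with a median of 0.25, and 82 of 86 lay above 0. Both directions were seen in 81 members (94.2%), against 45.5% of all tested genes. Each sex holds 1 library in one of the groups, so each direction rests on a single low library, Cre-positive 1 or Cre-negative 3. In limma's interaction of sex and group, 0 members had an adjusted p under 0.05 (smallest 0.0833, against 0.0788% of all tested genes past the threshold), and 40 of 86 (46.5%) had an unadjusted p under 0.05, against 20.7% of all tested genes. In this fit a lone library is assumed to vary like the others, and the 2 lone libraries are those already described as lowest, so it is no separate observation. With sex as a term in the group comparison, 0 members passed and the median was -0.022.

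In the deposited values the spread between mice was wider in the Cre-negative group, which did not hold under every scaling. The standard deviation of log2(FPKM + 1) was larger among Cre-negative than among Cre-positive libraries in 73 members (84.9%), against 54.3% of all tested genes. Its median over the members was 0.24 in the Cre-negative and 0.14 in the Cre-positive group, against 0.16 and 0.14 over all tested genes. The count was 63 members after median-of-ratios scaling, 45 after quantile normalization, where the medians were 0.17 in both groups, and 35 after scaling to the same sum, where they were 0.16 and 0.19. The median member differed 1.40-fold between its highest and its lowest library, and 4 members differed more than 2-fold. The steadiest members over all 6 libraries were Atp5d, the delta subunit of the F1 stalk, with an SD of 0.094, Cox4i1 with 0.096 and Ndufb7 with 0.10. Cox4i1 was at 681, 603 and 568 FPKM against 576, 584 and 584, and Cre-negative 1 was its one high library.

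The least steady member was Ndufs5, an accessory subunit of complex I at chr4:123712710-123718202 of GRCm38, with an SD of 0.74. It was at 22.9, 8.32 and 8.59 FPKM in the Cre-negative libraries and 19.9, 8.75 and 27.0 in the Cre-positive libraries, so 3 libraries were high and 3 low without regard to group. It did not share the order of the other members. The table also lists BC002163, annotated as a processed pseudogene at chr16:42955631-42955949, which matches the Ndufs5 transcript at 99.4% of 319 aligned bases. BC002163 was at 20.0, 36.4 and 26.7 FPKM against 19.3, 32.0 and 15.3, high where Ndufs5 was low.

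The sum of the 2 genes was steady, at 42.9, 44.7 and 35.3 FPKM in the Cre-negative and 39.2, 40.8 and 42.3 in the Cre-positive libraries. The highest and lowest library differed 1.27-fold in the sum and 3.24-fold in Ndufs5 alone. The group means of the sum were 41.0 ± 4.99 and 40.8 ± 1.53 FPKM (SD, n = 3 each). The copy was looked up after the values of Ndufs5 were seen, and the rule by which fragments fitting both genes were divided is not given in the sources at hand. The level of Ndufs5 alone is therefore uncertain. In all, 28 members have at least 1 other gene that matches their transcript at 95% identity or more over at least 100 bases, and 5 of them (Ndufaf7, Ndufc1, Ndufs5, Cox7c and Atp5g1) have such a match among the rows of the table.

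**Figure D4:**
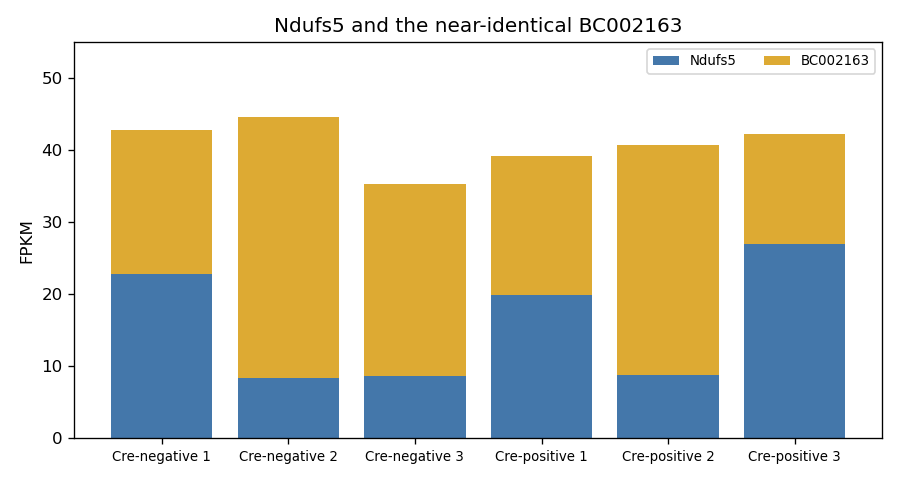
FPKM of Ndufs5 (lower bars) and of the near-identical BC002163 (upper bars, stacked) in each library. Ndufs5 ranges from 8.32 to 27.0 FPKM while the stacked height ranges from 35.3 to 44.7.

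Ndufaf2 and Atp5k followed Ndufs5 in spread. Ndufaf2, an assembly factor of complex I, had an SD of 0.41, at 9.70, 9.60 and 6.89 FPKM against 5.10, 12.8 and 8.63, and Atp5k had an SD of 0.34. Cox6b2 ran against the common order: it was lowest in Cre-negative 1, at 2.16 FPKM, and lay between 3.33 and 4.47 in the other libraries.

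Other mitochondrial genes were read from the same fit, and none passed limma's adjusted threshold. The 76 mitochondrial ribosomal proteins, which translate the mitochondrial DNA, had nearly the library order of the members, at 0.21, 0.072 and -0.23 in the Cre-negative and -0.17, 0.0030 and 0.12 in the Cre-positive libraries. The 24 genes of the TCA cycle and pyruvate dehydrogenase had a narrower spread, at 0.081, 0.050 and -0.18 and at -0.033, -0.032 and 0.12, and a median log2 fold change of 0.019. The 14 electron carriers and subunits that the symbol rule misses had a median of -0.051. Among them Higd1a, a supercomplex factor induced by hypoxia, was at 9.26, 9.15 and 8.26 FPKM against 6.49, 7.16 and 8.10, with all Cre-positive values below all Cre-negative values (log2 fold change -0.26 ± 0.11, SE; limma unadjusted p = 0.047, adjusted p = 0.998). Of 41 assembly factors outside the rule, 23 lay above 0 and 18 below, with 0 past an unadjusted p of 0.05. In 3 of these 41, Coa6, Cox19 and Pet100, all Cre-positive values lay below all Cre-negative values, against 2.6% of all tested genes. Higd1a was the only such gene of its 14. In neither list did all Cre-positive values of a gene lie above. Pet100 was named after its values were seen. Cox19 had a log2 fold change of -0.26 ± 0.13 (SE). The median was -0.035 for the mitochondrial ribosomal proteins, where Mrpl23 had the smallest unadjusted p at a log2 fold change of -0.31 ± 0.16 (SE), and 0.037 for the assembly factors, where Coa6 stood at -0.22 ± 0.11 (SE). The 21 genes of glycolysis had a median of -0.027, with 9 above 0 and 12 below. In 1 of them, Hk1, all Cre-positive values lay above all Cre-negative values, against 5.77% of all tested genes. Hk1 was at 5.66, 5.83 and 4.33 FPKM against 6.57, 6.71 and 6.30, a log2 fold change of 0.27 ± 0.13 (SE). Of 19 genes of mitochondrial biogenesis and DNA maintenance, 15 lay above 0 and 4 below, with a median of 0.076, and none passed an unadjusted p of 0.05. Among them the topoisomerase Top1mt stood at 0.25 ± 0.13 (SE) and the nuclear receptor Esrrg at 0.36 ± 0.20 (SE). Ppargc1a, the coactivator known to drive mitochondrial biogenesis, had the same mean of 14.8 FPKM in both groups.

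As list means, cytosolic ribosomal and crypt genes were also low in the 2 libraries where the members were lowest, and enterocyte markers were highest there. The 82 cytosolic ribosomal proteins averaged 0.33 in Cre-negative 1, -0.17 in Cre-negative 3 and -0.12 in Cre-positive 1. The 10 crypt and proliferation markers averaged 0.14, 0.033 and -0.40 in the Cre-negative and -0.22, 0.17 and 0.27 in the Cre-positive libraries, and their summed level was 485 to 841 FPKM against 434 to 765. Taken singly, 8 of these 10 were lowest in Cre-negative 3 and 1 in Cre-positive 1. Lgr5 was highest in Cre-positive 1, at 3.40 FPKM, and Ascl2 was at 4.16 there, against 2.55 to 3.62 in the Cre-negative libraries. The 15 tested enterocyte markers averaged -0.22, 0.054 and 0.42 and 0.24, -0.16 and -0.33. Of them, 7 were highest in Cre-negative 3 and 4 in Cre-positive 1, while Fabp1 was lowest in Cre-positive 1, at 718 FPKM. The summed level of the enterocyte markers ran from 10550 to 17640 FPKM in the Cre-negative and from 8804 to 17350 in the Cre-positive libraries. Their part in the members' library order was not tested, and in whole tissue fewer cells of a type and less RNA per cell cannot be told apart.

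**Figure D5:**
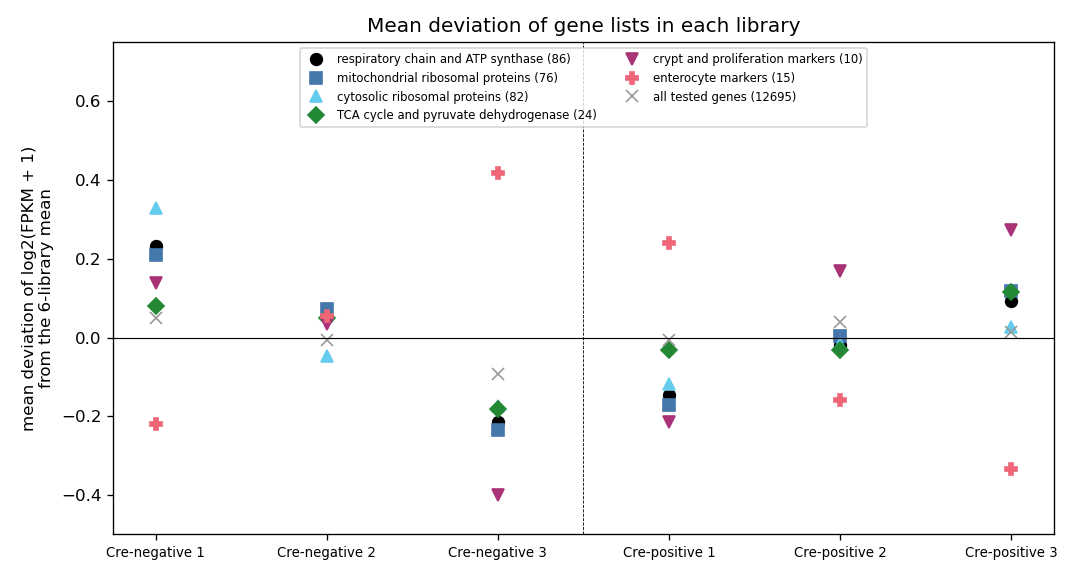
Mean deviation of log2(FPKM + 1) from the 6-library mean for the members and 6 other gene sets (symbols) in each library; the dashed line parts the groups. Enterocyte markers stand at 0.42 in Cre-negative 3 and 0.24 in Cre-positive 1, where the members stand at -0.21 and -0.15.

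The 12 B cell markers summed to 11.7 to 23.4 FPKM in the Cre-negative libraries and to 99.4, 124 and 17.9 in Cre-positive 1, 2 and 3, and the 9 Paneth cell markers were each highest in Cre-negative 1, summing to 51050 FPKM there and to 23800 to 36260 in the others. Most members were highest in that library too, and smooth muscle markers had their highest mean deviation there, at 0.25. In other libraries the Paneth cell markers differed from the members. Their mean deviation was 0.12 in Cre-negative 3 and 0.075 in Cre-positive 1, where the members were lowest, and -0.38 in Cre-positive 3. The plasma cell markers were highest in Cre-negative 1, at a mean deviation of 0.19, and lowest in Cre-negative 3, at -0.34, as the members were. In Cre-positive 1 the plasma cell markers stood at 0.046 and the members at -0.15. Of the 7 plasma cell markers, 2 were highest in Cre-negative 1 and 6 were lowest in Cre-negative 3. The 7 goblet cell markers had a median log2 fold change of -0.083, the 7 plasma cell markers 0.12, the 10 macrophage markers 0.059, the 8 tested adipocyte markers -0.42 and the 3 tested markers of neurons and glia -0.029. The part of these cells in the members' values was not tested.

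Nuclear genes of the respiratory chain are known targets of NRF1, and many housekeeping promoters carry sites for ETS factors and YY1. Since the members varied together, their promoters were searched on both strands for the letters GCATGCGC (NRF1), CCGGAAGT (ETS) and AAGATGGCG (YY1), in windows from 250 bases before to 50 after the RefSeq start (GRCm38.p6). Of 92 members, 76 had a window. The NRF1 letters were in 12 of them (15.8%), against 5.79% of the tested genes with a window and 3.05% of all genes in the RefSeq table. The YY1 letters were in 8 (10.5%), against 3.49% and 1.64%, and in 7 of these 8 a match began 22 to 35 bases after the start. The ETS letters were in 5 (6.58%), against 8.95% and 4.31%. A match is a description of the letters and not of binding. The gene Nrf1 was itself listed at 0 FPKM in every library, and the reason was not tested.

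One window of each complex is shown, since each complex has members with a match: 200 bases before the start, 5′ to 3′ on the gene's strand, with the matched letters in capitals. They are the NRF1 letters for Ndufa6 (chr15:82354292-82354491, minus strand), Sdhb (chr4:140961071-140961270, plus), Cox6a1 (chr5:115348959-115349158, minus) and Atp5k (chr5:108434400-108434599, minus), and the ETS letters for Uqcr11 (chr10:80406822-80407021, minus). Uqcr11 also has the NRF1 letters from 4 bases before the start, which run past the printed window and are not in capitals. In Cox6a1 and Atp5k the letters overlap with their own reverse complement.
Ndufa6: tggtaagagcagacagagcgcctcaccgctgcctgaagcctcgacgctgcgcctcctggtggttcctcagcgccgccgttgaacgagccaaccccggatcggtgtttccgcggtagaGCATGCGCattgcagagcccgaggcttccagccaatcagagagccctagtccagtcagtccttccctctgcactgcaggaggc
Sdhb: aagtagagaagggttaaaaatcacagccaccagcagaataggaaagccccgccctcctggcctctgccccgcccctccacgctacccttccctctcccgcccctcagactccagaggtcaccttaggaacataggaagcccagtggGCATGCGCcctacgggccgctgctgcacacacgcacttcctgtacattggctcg
Uqcr11: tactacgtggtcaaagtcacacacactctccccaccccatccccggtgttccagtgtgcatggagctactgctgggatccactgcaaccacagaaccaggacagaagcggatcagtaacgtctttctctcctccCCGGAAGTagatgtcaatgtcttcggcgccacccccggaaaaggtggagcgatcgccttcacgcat
Cox6a1: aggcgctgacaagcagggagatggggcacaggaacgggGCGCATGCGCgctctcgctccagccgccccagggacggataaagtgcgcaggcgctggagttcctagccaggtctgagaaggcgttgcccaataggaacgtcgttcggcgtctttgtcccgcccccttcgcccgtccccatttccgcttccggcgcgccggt
Atp5k: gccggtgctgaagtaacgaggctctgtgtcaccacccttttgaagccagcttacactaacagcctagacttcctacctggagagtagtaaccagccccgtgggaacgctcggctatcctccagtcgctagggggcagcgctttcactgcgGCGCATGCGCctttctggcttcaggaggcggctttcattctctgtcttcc
The match in capitals began 83 bases before the start in Ndufa6, 54 in Sdhb, 66 in Uqcr11, 162 in Cox6a1 and 50 in Atp5k. These 5 genes had mean levels of 152, 188, 251, 460 and 206 FPKM.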

How the data were processed

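Total RNA from whole terminal ileum was made into directional libraries with the NEBNext Ultra II kit, per the labels' protocols. Per the submitters' processing notes, STAR, Cufflinks and Cuffnorm were among the tools, beside Trimmomatic, FastQC, bedtools and SAMtools, with the builds GRCm38 and mm10. The authors deposited 1 table of FPKM values. Neither the use of strand in counting nor the scaling between libraries is stated in the sources used here. No count model was applied to these values.

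Groups came from the sample titles, which state no pairing of the mice. A gene was tested (12695 were) if its mean over the 6 libraries reached 1 FPKM, on log2(FPKM + 1) with limma's moderated test and an intensity trend (two-sided, Benjamini-Hochberg over all tested genes, threshold 0.05). This scale understates the change of low genes. The test was checked on simulated data in which genes varied independently and the added changes were larger than any member's estimate. That check therefore does not cover genes that vary together or changes as small as those of the members. Values behind a list are means or medians over its tested genes, without a test. The depth of each library relative to Cre-negative 1 is the inverse of the commonest ratio of low FPKM values. These move in steps of whole fragments, and the depth so read holds only without further scaling between libraries.

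Gene positions are those of GENCODE M21 (GRCm38): 91 members matched by symbol and 1 through a newer symbol. Near-identical genes were sought with blastn 2.17.0 from each member's longest protein-coding transcript. Versions were limma 3.58.1 under R 4.3.3, and numpy 2.4.6, matplotlib 3.10.9 and pandas 2.3.3 under Python 3.11.15.

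The members, lists and markers were chosen with earlier results of these data known. The rule for named genes took, in each complex, the 3 members with the highest mean and the 2 with the smallest p in each direction, the isoform pairs and the c-ring, the 3 largest and 3 smallest SDs, and, from each other mitochondrial list, the 2 smallest p values. Some of the genes so chosen are not named and are covered only by their list's range, median or counts. The values of 1 member are not reported here. Alternatives were other pseudocounts, filters, scalings and limma settings, a replicate block and each library left out; a sex term was added after the data were seen.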

Additional observations from a re-analysis of the deposited data

Results flagged for a closer look

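The group difference of the members ran in opposite directions in the 2 sexes. The median log2 difference, Cre-positive minus Cre-negative, was -0.29 among the male libraries and 0.25 among the female libraries, in 81 of 86 members with both signs. In limma's interaction 0 members passed the adjusted threshold, and 40 (46.5%) had an unadjusted p under 0.05, against 20.7% of all tested genes. Sex was read from Xist and Ddx3y, and each sex has 1 library in one of the groups, so the sex and the single library cannot be told apart. The lone libraries, Cre-positive 1 and Cre-negative 3, are also the lowest over all members, so these values restate the library order.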

How the results depend on the processing

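No member passed limma's adjusted threshold under any alternative tried. The count over all genes, 0 in the reported fit (459 at an unadjusted p under 0.05), was 2 with a pseudocount of 0.1 or of 5 or with an equal sum, 24 with array weights, 1 with the replicate block and 0 to 41 with 1 library left out (41 without Cre-positive 3). Deviations from the group mean had correlations of -0.13, 0.034 and -0.11 between same-numbered libraries of the groups. Between differently numbered libraries they were -0.021 to 0.14. These values gave no sign of pairing by number but cannot exclude it, and the replicate block left 0 members called. Members below 0 numbered 13 with an equal sum, 41 with quantile normalization and 21 to 82 with 1 library left out. At an unadjusted p under 0.05, 2 members were lower with median-of-ratios scaling and 1 was higher with an equal sum. With array weights 5 were lower and 1 higher, where 2717 of all tested genes reached that p. Without Cre-negative 3 there were 3 lower, without Cre-positive 3 there was 1 lower, and other alternatives gave 0. The median of the electron carriers outside the rule was 0.063 with an equal sum and -0.15 to 0.043 with 1 library left out.

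Estimates near 0 changed sign. Scaling to an equal sum or by median of ratios multiplies all values of a library by the same factor. The median of all tested genes moved from 0.029 to 0.13 with an equal sum and to -0.0019 with median-of-ratios scaling. Under the other alternatives the cause was not tested. With an equal sum, log2 fold changes were 0.0013 (Uqcr10), 0.032 (Uqcr11), 0.025 (Atp5d), 0.098 (Atp5b) and 0.10 (Cox7a1). With quantile normalization they were 0.0026 (Uqcr11), -0.0096 (Cox6b2), 0.0077 (Atp5d), 0.11 (Atp5b) and 0.060 (Cox7a1). With median-of-ratios scaling they were -0.017 (Uqcrfs1), -0.029 (Uqcrq), -0.010 (Cox5a) and -0.0061 (Atp5l). With array weights they were -0.011 (Sdha), -0.049 (Uqcrfs1), -0.034 (Uqcrq), -0.13 (Cox6b2), -0.046 (Cox5a) and 0.011 (Cox7a1). With the sex term they were 0.0096 (Atp5b) and 0.051 (Cox7a1). With 1 library left out, the lowest and highest values were -0.052 and 0.20 (Ndufb10), -0.037 and 0.13 (Sdha), -0.084 and 0.14 (Sdhc), -0.12 and 0.11 (Uqcrfs1), and -0.14 and 0.14 (Uqcrq). They were -0.27 and 0.015 (Uqcr10), -0.23 and 0.016 (Uqcr11), -0.20 and 0.20 (Cox6b2), -0.13 and 0.13 (Cox5a), -0.11 and 0.20 (Atp5l), -0.11 and 0.056 (Atp5b), and -0.093 and 0.10 (Cox7a1).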
